A study of Sus scrofa with 12 samples.

Results

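Frozen-thawed boar sperm (Fts) carried 3573 places on mRNA exons where an m6A peak, a stretch of RNA enriched by an antibody against N6-methyladenosine over the unprecipitated input, was called in all 3 Fts samples. They were found by laying the 3 peak lists of Fts replicates 1, 2 and 3 (Fts1, Fts2 and Fts3) over each other on the same strand and keeping each stretch that a peak of every list covered. In all, 4038 such stretches were found, and the 465 off annotated mRNA exons are not described further. Genes were taken by overlap of at least 1 bp with their RefSeq mRNA exons on the same strand of the pig genome Sscrofa11.1 (susScr11 in the UCSC browser). A gene was a member when it held a peak in each of the 3 Fts samples, which 3416 of 20648 annotated protein-coding genes did (16.5% of all genes). The fresh sperm lists played no role in the choice.

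Semen came from 3 Duroc boars, with 5 sperm-rich fractions collected from each, and every ejaculate was divided into a fresh share and a share for cryopreservation. Fresh sperm (Fs) went straight into liquid nitrogen. Frozen-thawed sperm was cooled to 17 °C, spun down and taken up in a lactose-egg yolk extender made of 20 mL hen's yolk in 80 mL water. It was then cooled at 4 °C, brought to 6% glycerol, packed in 0.2 mL straws, held at -130 °C in nitrogen vapor for 15 min, plunged into liquid nitrogen and thawed. Both groups share the detergent wash (Triton X-100) used to lyse somatic cells, the removal of ribosomal RNA, the breaking of RNA into pieces of about 100 nucleotides (nt) and the incubation with the antibody for 2 h. Each group had 3 immunoprecipitated (IP) libraries and 3 input libraries. The labels number the samples 1 to 3 without naming the boar behind a number. The study describes its comparison of Fs with Fts as paired. The main p-values here set the group difference against all relabellings of the 3 Fts and 3 Fs samples, without pairing. A version with the replicate number as a block is given as an alternative.

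N6-methyladenosine is the most common internal modification of mRNA. It is set by a nuclear writer complex around METTL3 and METTL14, removed by the demethylases FTO and ALKBH5, and bound by reader proteins of the YTH family that act on splicing, translation and decay of the marked transcript. In somatic mammalian cells the mark lies mostly in long internal exons and around stop codons, within the short motif RRACH (R is A or G, H is A, C or T). Mature sperm hardly transcribe or translate, and hold RNA left over from spermatogenesis together with RNA taken up from the tract and the seminal plasma.

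The value of a peak is its score, which the peak caller MACS wrote as 10 times the negative base-10 logarithm of the p-value of IP against the input of the same sample. A score of 50 stands for a p-value of 1e-05. The lowest score in the lists is 3.02, a p-value of 0.499, so that the lists hold many weak peaks, and MACS stops counting at about 3100. The score of a place in a sample is that of the highest peak over it, and places were ranked by the median over the 3 Fts samples. Scores grow with the reads on a transcript as well as with its enrichment, and these cannot be told apart here. For the same reason fewer cells of a type and less RNA per cell cannot be told apart. Sequencing depth is not in the files used here.

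The places of at most 300 bases among the 25 with the highest medians that lie wholly within coding sequence are printed first, because they show the letters under the strongest signal and where the motif falls in it. Sequences are in transcript sense from Sscrofa11.1, 5′ to 3′, with every RRACH in capitals.
EIF4A2, chr13:124584495-124584634 (plus strand): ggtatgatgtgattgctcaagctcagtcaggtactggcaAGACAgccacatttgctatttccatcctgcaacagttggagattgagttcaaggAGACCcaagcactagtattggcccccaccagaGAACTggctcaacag
ZC3H18, chr6:1051422-1051690 (minus strand): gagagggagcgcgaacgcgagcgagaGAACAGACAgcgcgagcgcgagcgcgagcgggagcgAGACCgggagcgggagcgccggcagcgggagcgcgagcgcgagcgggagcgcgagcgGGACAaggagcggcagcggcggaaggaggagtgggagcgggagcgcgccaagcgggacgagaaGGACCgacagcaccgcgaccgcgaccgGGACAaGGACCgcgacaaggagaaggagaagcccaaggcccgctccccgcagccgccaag
MCM2, chr13:72643995-72644255 (minus strand): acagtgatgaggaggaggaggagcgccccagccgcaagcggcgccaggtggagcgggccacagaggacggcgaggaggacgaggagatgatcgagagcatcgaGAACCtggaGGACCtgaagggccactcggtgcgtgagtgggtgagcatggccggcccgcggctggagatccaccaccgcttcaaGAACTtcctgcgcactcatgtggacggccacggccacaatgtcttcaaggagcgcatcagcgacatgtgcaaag
CEP128, chr7:103691093-103691209 (minus strand): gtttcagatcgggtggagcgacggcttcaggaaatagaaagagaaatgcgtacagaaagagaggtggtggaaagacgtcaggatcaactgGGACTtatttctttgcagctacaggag
NR5A1, chr1:265296571-265296581 (minus strand): ccgggcaggag
ARL9, chr8:55763808-55763864 (plus strand): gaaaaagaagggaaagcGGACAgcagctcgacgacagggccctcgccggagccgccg
The EIF4A2 stretch is exon 4 of 11 and holds 3 RRACH. The ZC3H18 stretch is exon 9 of 19, has a GC content of 74.0% and holds 7 RRACH, some of them overlapping in the letters above. MCM2 shows exon 4 of 16 with 3 RRACH, and CEP128 shows exon 10 of 29, whose only RRACH is GGACT, the form that is best known as an m6A site. The 11 bases of NR5A1 in exon 5 of 7 hold no RRACH, and the 57 bases of ARL9 in exon 1 of 4 hold 1. The first 4 of these stretches are whole exons, and the last 2 are parts of an exon.

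Across the 3573 places the median score had a middle value of 30.8, with quartiles of 13.7 and 87.4, and it ran from 3.27 to 3100. It reached 50 at 1321 places (37.0%), and 800 places were at 50 or more in each of the 3 samples. At the upper end 92 places had a median of 1000 or more and 22 sat at the ceiling of the scale. Places had a median length of 185 bp, with 213 under 50 bp and 204 over 1000 bp. The samples differed: of the 1321 places with a median of 50 or more, Fts1 alone gave the lowest score at 735, Fts2 at 274 and Fts3 at 305. The middle score of a place was 25.1 in Fts1, 35.1 in Fts2 and 35.7 in Fts3. The ratio of highest to lowest score at a place had a median of 3.05, and at 361 places it was above 10. Scores of single places are therefore given per sample. Across places the scores of a pair of samples had Spearman correlations between 0.614 and 0.704, given as a description because places share libraries and transcripts.

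The 25 places with the highest medians lay on 22 genes. TPT1, which encodes the translationally controlled tumour protein, had a place over the start codon (chr11:21929221-21929413) at 3100 in Fts1, Fts2 and Fts3. Its other place (chr11:21932689-21933199) scored 2190, 3100 and 3211. EIF4A2, an RNA helicase of translation initiation, was at 3100 in all 3 samples, as were ZC3H18, a zinc-finger protein of nuclear RNA surveillance, and a 3360 bp exon of NUMA1 (chr9:6599945-6603304), the spindle pole protein. A place on ASIC2, an acid-sensing sodium channel, was also at 3100 throughout and lay outside its longest coding transcript (chr12:42021209-42021414). TPT1, EIF4A2, ZC3H18, NUMA1 and ASIC2, with a pair of places on PSP-II, make up the 7 places at the ceiling in every Fts sample.

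The next places had a sample below the ceiling. PTMA, the acidic nuclear protein prothymosin alpha, scored 2771, 3100 and 3100 over its last exon (chr15:132360669-132361442). MCM2, a subunit of the replicative helicase, scored 1682, 3100 and 3100 at the exon printed above. SPECC1 scored 1539, 3100 and 3100 (chr12:59541583-59541819). Fts1 was the lowest sample for each of these 3 places. EEF1A1, the elongation factor that brings aminoacyl-tRNA to the ribosome, ran the other way with 3100, 3100 and 1385 over its stop codon (chr1:92424306-92425116). PTMA, EEF1A1, TPT1 and HMGN1 have near-identical processed copies elsewhere in mammalian genomes, and how reads were shared among copies is not given, so their scores are uncertain.

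Centrosome and nuclear genes followed. CEP164, a protein of the distal appendages that anchor the centriole, scored 534 in Fts1, 3125 in Fts2 and 3100 in Fts3 over exon 8 of 32 (chr9:44717823-44718203). CEP128, of the subdistal appendages, scored 514, 3100 and 3100. HMGN1, a nucleosome-binding protein, scored 507, 3100 and 3100 at its start codon. PPP1R11, an inhibitor of protein phosphatase 1, scored 455, 3100 and 3100, and PHF21A, a histone-reading subunit of a demethylase complex, scored 322, 3100 and 3001. At these 5 places Fts1 stood apart from the other 2 samples. Fts1 was the lowest sample alone at 11 of the 25 places, Fts3 at 6 and Fts2 at 1.

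Some of the 25 rest on 2 samples. MYLK4, a member of the myosin light chain kinase family, scored 3100, 3100 and 269. NR5A1, the nuclear receptor of steroidogenic cells, scored 3100 in Fts1, 24.6 in Fts2 and 3100 in Fts3 over only 11 bp. A gene annotated as LOC110258908, on an unplaced scaffold, scored 3.08, 3100 and 3100, and it is the widest spread of all places with a median of 50 or more, at a ratio of 1006. ARL9, a small GTPase, scored 66.0, 2960 and 3100. After LOC110258908 the widest spreads belonged to PSP-I at 5.28 to 2496, EEF2 at 6.89 to 3100, BAZ2B at 4.61 to 1733 and GATA2 at 11.2 to 3100. EEF2, BAZ2B and GATA2 were highest in Fts2, so a single library carries the height of these 3 places.

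**Figure D1:**
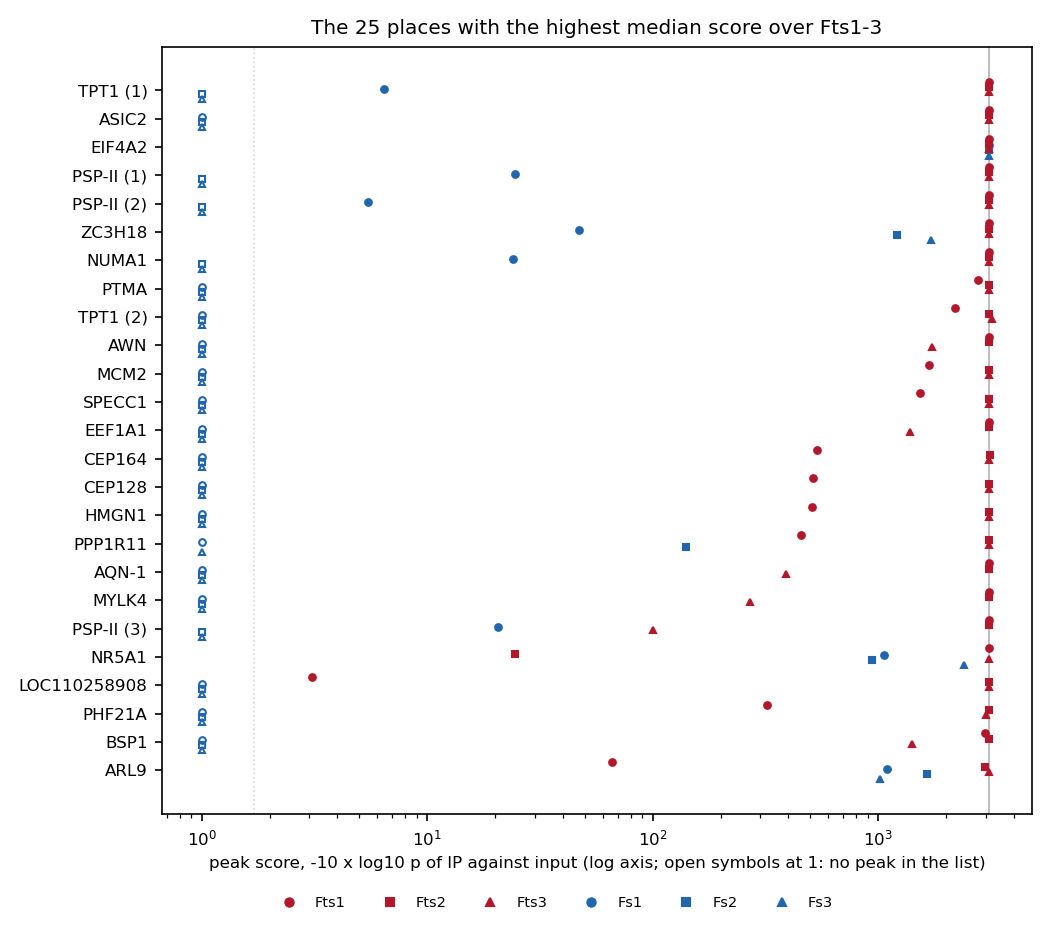
Peak scores at the 25 places with the highest median score, 1 line of points per place named by its gene, with the score (10 times -log10 p of IP against input) on a log axis. Red symbols are the 3 Fts samples and blue symbols the 3 Fs samples, with open symbols at 1 where a sample had no peak, and the vertical line at 3100 is the ceiling. At 7 places all 3 Fts points sit at 3100, and 4 places have a peak in each of the 3 Fs samples.

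In fresh sperm, 15 of these 25 places had no peak in any sample, 6 had a peak in 1 sample and 4 in all 3. EIF4A2 scored 3100 in Fs1, Fs2 and Fs3, the same ceiling as in Fts. ARL9 scored 1088, 1637 and 1018, within the span of its Fts scores. NR5A1 scored 1061, 937 and 2408. ZC3H18 scored 47.2, 1210 and 1716, all below 3100. The 5 member genes with the highest medians among those with no Fs peak anywhere on the gene were PTMA, MCM2, SPECC1, EEF1A1 and MYLK4, whose Fts values are given above. Such genes numbered 654, or 3.17% of all annotated genes. The absence of a listed peak says only that none was called, since the lists hold no value for places without a peak.

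Genes of some seminal plasma proteins, the spermadhesins and BSP1, stood among the highest scores. The spermadhesins are small proteins that the boar's accessory glands secrete and that coat the sperm surface, and their 5 genes lie within 80.7 kb (chr14:132240887-132321592). This group was put together after the values were seen, and its levels are a description. PSP-II, the binding partner of PSP-I, scored 3100 in all 3 Fts samples at an internal exon (chr14:132277992-132278101) and over its last exon (chr14:132281471-132281728). The remaining PSP-II place scored 3100, 3100 and 100 (chr14:132274013-132274315). AWN, which binds sugars of the zona pellucida, had a highest gene score of 3100 in Fts1, 3100 in Fts2 and 1735 in Fts3. AQN-1 had 3100, 3100 and 389, PSP-I had 3100, 1530 and 3100, and SPMI, which lies on the minus strand, had 1647, 3035 and 1732. All 5 genes had a peak in every Fts sample, and the 5 hold 14 places.

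Fs samples had few and low peaks in these genes. The peaks on the 5 genes numbered 20 in Fts1, 17 in Fts2 and 19 in Fts3 against 9 in Fs1, 1 in Fs2 and 0 in Fs3. Peaks of 1000 or more numbered 13, 10 and 6 in Fts and 0 in each Fs sample, whose highest scores here were 29.4, 8.94 and no peak. BSP1, a seminal plasma protein that binds membrane phospholipids, likewise scored 2976, 3100 and 1410 in Fts and had no Fs peak. Of 23 other secreted proteins of the male tract, also grouped after the values were seen, 3 (13%) were members, against 16.5% of all genes. The 3 were BSP1, RNASE12 (22.2, 49.9 and 18.7) and NPC2 (12.7, 38.9 and 29.6). Of the 23, 4, 4 and 6 had a peak in Fts and 5, 6 and 5 in Fs, which overlap. Scores above 1000 were seen in the spermadhesins and BSP1, while RNASE12 and NPC2 stayed below 50 in every Fts sample.

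**Figure D2:**
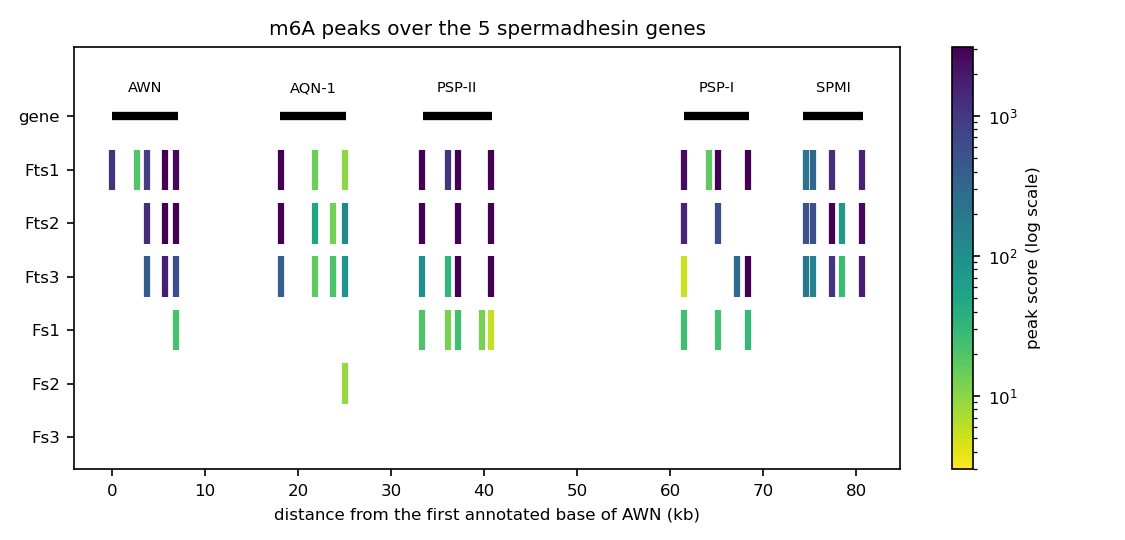
Peaks on the 5 spermadhesin genes by sample, drawn against distance in kb from the start of the cluster, with the genes as black bars and the score of each peak as its color on a log scale. Peaks of the 3 Fts samples reach 3100 across AWN, AQN-1, PSP-II and PSP-I, while the highest Fs peak is at 29.4.

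Ribosomal protein genes were a further group with high scores and little in Fs. Of 46 annotated, 40 had a peak in Fts1, 38 in Fts2 and 28 in Fts3, against 7, 6 and 5 in Fs. In the whole annotation 5548, 6130 and 6544 genes had a peak in Fts and 5253, 6391 and 6299 in Fs. A total of 23 of the 46 were members, with a median gene score of 521 against 36.0 over all member genes, and 22 of the 23 had a median of 50 or more (6.77% of all annotated genes were members at that level). RPS6, the ribosomal protein that S6 kinase phosphorylates, scored 1385, 2349 and 2431, and RPS27 scored 1329, 2525 and 2290. RPL4 with 1402, 3206 and 120 and RPS20 with 1333, 3100 and 291 were lower in Fts3. Fts3 also had the fewest ribosomal genes with a peak. In 22 of the 46 (47.8%) the highest score of each Fts sample was above that of each Fs sample, compared with 7.46% of all genes. Ribosomal proteins have many processed pseudogenes, and their scores are uncertain to that extent.

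The places on ribosomal genes covered a whole exon in 31 of 36 cases, and 31 of 36 had no Fs peak. With peaks of 20 or more alone, 36, 37 and 28 genes had a peak in Fts and 1, 2 and 2 in Fs, a threshold added after the data were seen.

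Of 16 translation factors, 8 (50%) were members, against 16.5% of all genes. All 8 had a median of 50 or more, against 6.77% of all genes. The members include EEF1A1 and EIF4A2, described above, and EEF2, the translocation factor, with highest gene scores of 658, 3100 and 1204. PABPC1, the poly(A)-binding protein, scored 579, 632 and 1452 against 5.88, 17.7 and 4.47 in Fs. The number of translation factors with a peak was 8, 12 and 11 in Fts and 6, 6 and 6 in Fs, so the groups did not overlap. Over all annotated genes the counts, given above, did overlap.

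Of 26 heat shock proteins and chaperones 10 (38.5%) were members, against 16.5% of all genes. A peak was present on 14, 13 and 14 of them in Fts and 6, 5 and 6 in Fs, again with no overlap. HSP90AB1, the constitutive HSP90, scored 334, 1222 and 1064 in Fts, with a peak of 182 in Fs1 alone. HSPA4, a nucleotide exchange factor for HSP70, scored 138, 245 and 335, and its relative HSPA4L scored 60.6, 126 and 136. DNAJA1, an HSP70 co-chaperone, scored 62.2, 70.9 and 35.4 against 20.4, 29.7 and 18.98. The remaining 6 of the 10 members had lower medians, and the list's median of 39.7 lay near the 36.0 of all members.

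Genes of the nucleus had large shares of members, second to the spermadhesins. Of 56 chromatin regulators 39 (69.6%) were members, with 44, 47 and 49 having a peak in Fts and 30, 37 and 41 in Fs. KDM5B, a demethylase of histone H3 lysine 4, scored 65.3, 1124 and 2121 and had no Fs peak. Its Fts peaks had no stretch common to every Fts sample. ARID1A, a SWI/SNF subunit, scored 171, 1899 and 520, and CHD2, a chromodomain helicase, scored 258, 729 and 517. KDM5B, ARID1A and CHD2 were each lowest in Fts1. These transcripts are long, with a median exonic length of 8248 nt in the list against 2699 nt over all genes, and longer genes were members more often. By quartile of exonic length 7.75%, 11.6%, 17.2% and 29.6% of genes were members.

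Splicing and RNA-binding proteins were members in 20 of 29 cases (69.0%), at a median length of 3549 nt. Their genes with a peak numbered 20, 26 and 23 in Fts and 12, 12 and 20 in Fs, where the lowest Fts and the highest Fs counts were equal. At a score of at least 20 they numbered 18, 20 and 21 in Fts and 4, 5 and 9 in Fs, without overlap. SRRM1, a coactivator of splicing, scored 240, 885 and 758 and had 3 places, none with an Fs peak. SRRM2, its relative, scored 461, 341 and 399, HNRNPM scored 293, 273 and 532, and HNRNPA1, a repressor of splice sites, scored 212, 376 and 192. In 14 of the 29 (48.3%) every Fts sample scored above every Fs sample, compared with 7.46% of all genes.

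Genes of the m6A machinery itself were partly members. Of 22 writers, erasers and readers, 9 (40.9%) were members in Fts, against 16.5% of all genes. In Fs, 9 (40.9%) had a peak in all 3 samples, against 16.1% of all genes. Among readers, HNRNPA2B1 scored 682, 1472 and 1070 in Fts and 51.0, 132 and 174 in Fs. YTHDC1, the nuclear reader, scored 670, 532 and 700 in Fts and 72.1, 108 and 49.98 in Fs, and it held 5 places. EIF3A, a subunit of the initiation factor that binds m6A in leader sequences, scored 520, 905 and 28.7. YTHDF3, a cytoplasmic reader, scored 265, 364 and 252 and had no Fs peak. Of the writer complex, ZC3H13 scored 53.1, 411 and 465, and VIRMA, under its older symbol KIAA1429, scored 313, 246 and 218 with no Fs peak. METTL3, METTL14, FTO, ALKBH5, YTHDF1 and YTHDF2 were not members. In HNRNPA2B1, YTHDC1, YTHDF3, KIAA1429 and ZC3H13 every Fts score was above every Fs score. These 5 are 22.7% of the list, compared with 7.46% of all genes.

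For genes of the axoneme and flagellum and of the centrosome and centriole the overlap of the groups depended on weak peaks. Of 52 axoneme and flagellum genes 31, 38 and 35 had a peak in Fts and 31, 31 and 33 in Fs. Of the 52, 27 (51.9%) were members, against 16.5% of all genes. A peak in all 3 Fs samples was on 25 (48.1%), against 16.1% of all genes. The list's median exonic length was 5144 nt, against 2699 nt over all genes. With peaks of 20 or more alone 20, 23 and 19 had a peak in Fts and 15, 16 and 16 in Fs, so that the overlap was gone. CFAP70, a protein of the axoneme, scored 280, 785 and 375, and CFAP44 scored 344, 828 and 61.0. DNAH10, a heavy chain of inner-arm dynein, scored 317, 670 and 130 against 88.3, 187 and 267 in Fs, which overlap. DNAI2, an outer-arm intermediate chain, scored 133, 245 and 223. Of 35 centrosome and centriole genes 18, 20 and 23 had a peak in both groups alike, and with peaks of 20 or more 11, 16 and 13 in Fts against 5, 7 and 6 in Fs. A total of 15 (42.9%) were members, against 16.5% of all genes. They were led by CEP164 and by PCNT, the scaffold pericentrin, at 990, 1372 and 3100. CEP350 scored 188, 279 and 323, and NIN, the microtubule anchor ninein, 272, 559 and 169.

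Of 35 genes of germline RNA and meiosis, 13, 21 and 18 had a peak in Fts and 10, 13 and 11 in Fs, counts that overlap at 13. At a score of at least 20 the counts were 7, 12 and 8 against 2, 4 and 2, without overlap. Members numbered 9. TDRD9, a helicase of the piRNA pathway, scored 35.6, 211 and 213, and DDX4, the germ cell helicase VASA, scored 115, 203 and 188 with no Fs peak. PIWIL2 scored 35.5, 161 and 88.9, also with no Fs peak, and ASZ1 scored 35.0, 29.2 and 77.5. Of 27 genes of the acrosome and gamete fusion 6 (22.2%) were members, against 16.5% of all genes. A peak was on 9, 7 and 10 of them in Fts and 8, 9 and 7 in Fs. At a score of at least 20 the counts were 4, 6 and 5 against 3, 4 and 5, which overlap as well. ZPBP scored 104, 214 and 540 with no Fs peak, and its Fts peaks had no stretch common to every Fts sample. ZAN, the sperm protein zonadhesin, scored 85.8, 27.7 and 56.4 in Fts and was higher in Fs at 179, 280 and 101. IZUMO2 and SPACA1 had medians of 32.7 and 19.1.

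A pair of lists had fewer genes with a peak in Fts than in Fs. Of 20 ion channel genes of sperm 6, 6 and 9 had a peak in Fts and 11, 13 and 11 in Fs. Members made up 15% of the list, near the 16.5% of all genes. The 3 members were CATSPERB, an auxiliary subunit of the calcium channel CatSper (350, 256 and 291), TRPV4, a cation channel (255, 252 and 281), and SLC26A8, a flagellar anion transporter (15.8, 10.8 and 17.6). Of 42 extracellular matrix genes 21, 20 and 25 had a peak in Fts and 27, 27 and 29 in Fs. With peaks of 20 or more alone both lists overlapped, at 3, 4 and 4 against 4, 4 and 5 and at 9, 12 and 11 against 13, 12 and 10, so the gap was seen only with weaker peaks included. Over the 24 lists, 9 showed no overlap between the 3 Fts and 3 Fs counts, 7 of them higher in Fts. At a score of at least 20, 14 of the 24 showed none, all 14 higher in Fts. Over all annotated genes the counts at that score were 2521, 3192 and 3109 in Fts and 2165, 2646 and 2479 in Fs, which overlap.

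**Figure D3:**
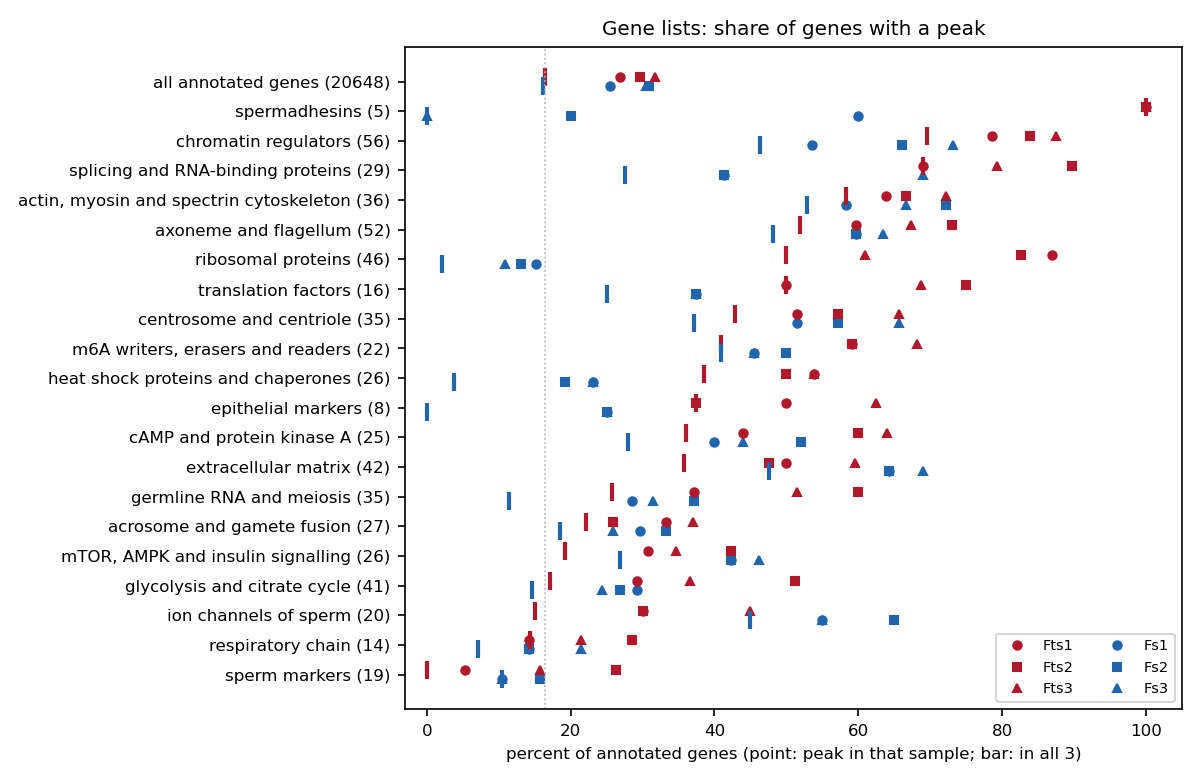
Genes with a peak in each sample as a percent of the annotated genes of the list, for the gene lists and for all genes, with red symbols for the 3 Fts and blue symbols for the 3 Fs samples, short bars for genes with a peak in all 3 samples of a group, and a dotted line at the 16.5% of all genes in Fts. Red symbols of the ribosomal protein genes lie far to the right of the blue ones, and those of the ion channel and extracellular matrix genes lie to the left.

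The remaining matrix and cytoskeleton members were long, multi-exon genes. FN1, fibronectin, a glycoprotein of plasma and matrix, scored 335, 1471 and 716 and held 22 places, each of them a whole coding exon, with an Fs peak at 1. THBS2, a thrombospondin, scored 594, 700 and 815 over its 3′ untranslated region (UTR). HSPG2, perlecan, scored 596, 1044 and 344 in Fts and 169, 542 and 332 in Fs, which overlap. COL7A1, the collagen of anchoring fibrils, scored 580, 666 and 580 against 602, 503 and 358 in Fs. Of 36 actin, myosin and spectrin genes 21 (58.3%) were members, against 16.5% of all genes. In Fs, 19 (52.8%) had a peak in all 3 samples, against 16.1% of all genes. The list's median exonic length was 8506 nt, and 29.6% of genes in the longest quartile were members. ACTN4, an alpha-actinin, scored 2092, 2217 and 140 in Fts and 1737, 1209 and 2887 in Fs, although none of its 4 places in Fts had an Fs peak. SPTBN1, beta-II spectrin, scored 556, 784 and 778 against 35.2, 51.0 and 12.3, SPTBN4 scored 710, 350 and 687, and MYO9A scored 142, 255 and 262.

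Other genes also held many places. SPTBN1, described above, had 10, of which 1 had an Fs peak. AMOT, the tight-junction protein angiomotin, had 9 places, all with a median of 50 or more, and scored 955, 1722 and 1420. CHD2, CEP350 and ANKRD17 had 8 each. ANKRD17, an ankyrin repeat protein, had 78.8, 928 and 63.8 as its gene scores but no place with a median of 50 or more. PATJ, a scaffold of cell polarity, BAZ2B, a bromodomain protein, and ST13, an HSP70-interacting protein, had 7 each. Among all members, 2084 genes had 1 place, 406 had 2, 110 had 3 and 71 had 4 or more. A further 745 member genes had a peak in every sample without any stretch common to all 3. Among the named genes these were KDM5B, ZPBP, FASN, PDE10A, SUCLG1, NDUFS1, NADK2, KRT18, COL3A1 and COL1A2. A gene's score in a sample is that of its highest peak, wherever it lies on the gene. The scores of these genes are therefore not those of a shared site.

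Genes of energy metabolism were members at about the 16.5% of all genes. Of 41 genes of glycolysis and the citrate cycle 7 (17.1%) were members, and of 14 annotated respiratory chain genes 2 (14.3%). FASN, fatty acid synthase, scored 18.7, 308 and 75.4, and HK1, a hexokinase, 40.6, 118 and 39.6, both with no Fs peak. PKM, pyruvate kinase, scored 164, 67.2 and 54.0 and was higher in each Fs sample at 183, 258 and 173. SUCLG1, a subunit of succinyl-CoA ligase, scored 25.4, 31.8 and 92.2. NDUFV2 of complex I scored 51.7, 139 and 311 with no Fs peak, and NDUFS1 scored 15.0, 10.6 and 53.6.

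Of 25 genes of cAMP and protein kinase A signalling 9 (36%) were members, against 16.5% of all genes. PRKAR1B, a regulatory subunit, scored 118, 274 and 211 at its start codon. ADCY10, the bicarbonate-sensitive soluble adenylyl cyclase, scored 317, 44.0 and 136, PDE10A, a phosphodiesterase, 77.1, 163 and 9.29, and PRKAR1A 38.02, 142 and 71.5. Of 26 genes of mTOR, AMPK and insulin signalling 5 (19.2%) were members. PIK3R1, the regulatory subunit of PI3-kinase, scored 12.8, 207 and 209 at its start codon. FOXO3, a transcription factor under insulin control, scored 99.1, 172 and 72.4, while PRKAA2, a catalytic subunit of AMPK, scored 63.4, 98.6 and 35.1. A list of single genes was taken from the study, which measured some of them separately and picked out others from its own sequencing of these samples. The list is therefore not independent of the data. Of its 25 annotated genes 13 (52%) were members, against 16.5% of all genes. Besides PIK3R1, FOXO3, PKM, FASN and the Sertoli marker SOX9 they were HIF1A (148, 386 and 295), SLC9A3R1 (117, 200 and 304), SORD, NCALD, PPP1R3B, CARD6, NADK2 and PLCB1. The medians of these last 6 were 177, 67.4, 30.0, 26.1, 10.5 and 6.01. Their Fs medians in the same order were 329, 18.4, 0, 50.1, 0 and 22.6. The median was thus higher in Fs for SORD, CARD6 and PLCB1, and higher in Fts for NCALD, PPP1R3B and NADK2. The study reports SORD, CARD6 and PLCB1 as hypermethylated in Fts, from its own comparison of single sites, an unlike measure.

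The labelled cell type was checked against marker genes. None of 19 sperm marker genes was a member. A total of 10 had no peak in any sample, the protamine PRM1, the transition protein TNP1, ODF1, AKAP4 and SMCP among them, and PRM2 reached 3100 in Fts2 alone and TNP2 reached 2075 in Fts3 alone. PRM3, a gene next to them, just missed membership with 3100 in Fts1, no peak in Fts2 and 3100 in Fts3 (chr3:31866340-31866618). A peak reports enrichment over input, not the level of a transcript, so absent peaks do not tell whether the RNA was there. The summed highest scores of the sperm markers were 374 to 3567 in Fts and 24.3 to 53.7 in Fs. The Fts sums rested mostly on a single gene per sample, ODF2 in Fts1 (374), PRM2 in Fts2 and TNP2 in Fts3. In Fs 2 of the 19 (10.5%) had a peak in all 3 samples, against 16.1% of all genes. They were ACR (18.6, 13.17 and 30.48), which had none in Fts, and AKAP3 (5.68, 15.68 and 6.47), which had a peak of 18.44 in Fts3 alone.

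Markers of other cells were scored in the same way. None of 10 leukocyte markers was a member, and their sums were 6.19 to 30.3 in Fts and 0 to 31.6 in Fs. Of 8 epithelial markers 3 were members, the keratins KRT19 (107, 171 and 172), KRT8 (52.3, 481 and 101.85) and KRT18 (6.60, 38.8 and 9.61), while EPCAM, KRT5 and CLDN4 had no peak in any sample. The epithelial sums were 616 to 1431 in Fts and 6.98 to 23.1 in Fs. MUC1, not a member, had 450 in Fts1, no peak in Fts2 and 1137 in Fts3. In Fs it had 3.05 in Fs1 and 14.67 in Fs2. Fibroblast marker sums were 405 to 1486 in Fts, mostly from FN1, and 34.2 to 110 in Fs, with COL3A1 (30.7, 9.34 and 9.19) and COL1A2 (19.02, 5.03 and 7) as the other members. COL1A1 had a peak in each Fs sample (10.07, 3.3 and 31.31) but in Fts3 alone of Fts (13.44). PDGFRA had peaks in Fs2 (36.28) and Fs3 (24.96) and none in Fts, and LUM and FBLN1 had no peak in any sample. Sertoli cell sums were 49.9 to 97.2 against 4.68 to 38.7, led by SOX9 (41.2, 76.3 and 87.6), which had no Fs peak. FSHR was at 8.67, 6.70 and 9.54 in Fts and at 4.68, 21.15 and 31.43 in Fs, while AMH, WT1 and INHA had no peak in any sample. Erythroid sums were 21.7 to 103 against 6.39 to 12.4, with SLC4A1 (21.7, 29.2 and 22.4) as the member. HBB, HBM and ALAS2 had no peak in any sample. EPB42 had 76.5 in Fts3 alone of Fts, most of the highest erythroid sum. Epithelial, fibroblast, Sertoli and erythroid sums were thus higher in Fts than in Fs, as were those of the sperm markers. FN1 and SOX9 carried most of the fibroblast and Sertoli sums in Fts. MUC1 carried most of the epithelial sums in Fts1 and Fts3, and EPB42 most of the erythroid sum in Fts3. Those sums therefore do not stand for their lists. The part of RNA from other cells in the scores above was not tested.

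Where the places lay along transcripts was read on the longest coding transcript of each gene, for the 3258 places on it. A total of 2513 (77.1%, 95% Wilson interval 75.7 to 78.5) had their midpoint in coding sequence (CDS) more than 100 nt from the start or stop codon, a class that makes up 51.2% of transcript length. The start codon class, within 100 nt of it, held 253 (7.77%, 6.90 to 8.74) against 5.65% of length. The stop codon class held 122 (3.74%, 3.15 to 4.45) against 5.95%. The 5′UTR held 161 (4.94%, 4.25 to 5.74) against 7.31%, and the 3′UTR held 209 (6.41%, 5.62 to 7.31) against 29.9%. Places were more frequent than length alone gives in coding sequence and at start codons, and less frequent in the other 3 classes. Each place counts once whatever its length, and peaks that meet across an exon junction were not joined for these shares. With 65.5% of coding places covering a whole exon, a share of places and a share of length are unlike measures. These intervals and the others given here cover counting error only. With the coding sequence divided into 3 parts of equal length, from start to stop, the parts held 875, 1015 and 623 of the coding places.

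Many places were exons rather than points within them. A whole exon was covered at 1976 places (55.3%) and at 1645 of the coding places (65.5%). Exons under coding places had a median length of 176 nt, against 133 nt for all exons with coding sequence in the same transcripts. Exons of at least 400 nt held 27.1% of coding places and made up 9.03% of these exons. They held 28.7% of the coding bases that lie more than 100 nt from both codons, a share close to that of the places. By place in the transcript, 11.3% lay in the first exon, 14.6% in the last and 74.1% in between. NUMA1, with a 3360 bp exon, is an example of a long internal exon among the strongest places.

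**Figure D4:**
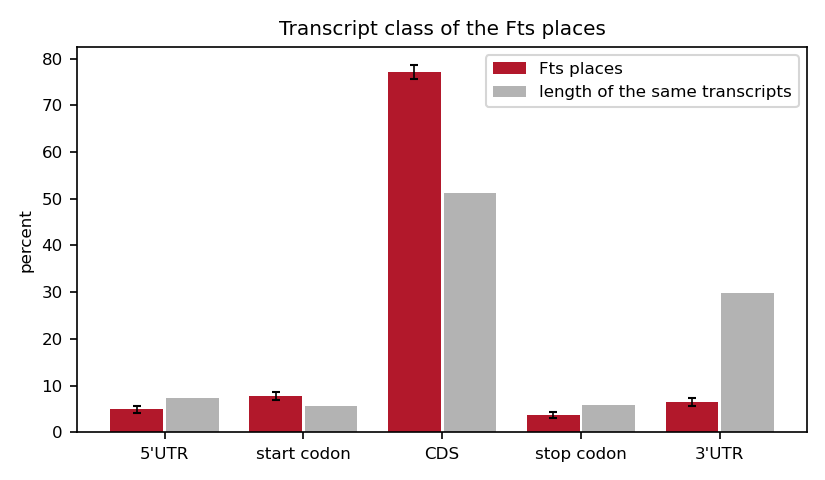
Percent of the Fts places in each class of the longest coding transcript, with 95% Wilson intervals, beside the percent of transcript length in that class. Coding sequence holds 77.1% of places against 51.2% of length, and the 3′UTR 6.41% against 29.9%.

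The motif was common in places and in their transcripts alike. RRACH, searched on the transcript strand, stood in 2854 of 3245 places (88.0%, 86.8 to 89.0), and windows of the same length drawn across the same transcripts held it in 85.5%. GGACT, a form of RRACH, stood in 23.4% of places and 22.4% of windows. Among places with a median of 50 or more RRACH was in 89.3% against 86.2% of windows. Windows placed without regard to peaks thus held RRACH nearly as often as the places did. Of the 25 strongest places 23 held 1 or more, the 11 bp of NR5A1 being 1 of the exceptions. The places had a median GC content of 49.6%, against 47.3% for their transcripts and, for wholly coding places, 49.0% against 49.3%.

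Fresh sperm had a peak at a minority of the Fts places. The share was 35.6% in Fs1, 37.9% in Fs2 and 35.9% in Fs3, a mean of 36.4% ± 1.25 (SD, n = 3). A total of 1793 places (50.2%) had no Fs peak and 848 (23.7%) had 1 in each Fs sample. The share did not climb steadily with the score. It was 30.9% for places with a median under 13, 37.5% from 13 to 50, 40.1% from 50 to 200, 38.8% from 200 to 1000 and 27.5% at 1000 or more. At the level of genes, 1581 of the 3416 members also had a peak in all 3 Fs samples.

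Because a place needs a peak in every Fts sample, its share in Fs cannot be set against its share in Fts. The comparison was therefore made with 1 Fts sample held out. Places common to Fts2 and Fts3 had a peak in Fts1 in 62.0% of cases, and in Fs1, Fs2 and Fs3 in 29.9%, 31.9% and 30.6%. Places common to Fts1 and Fts3 had a peak in Fts2 in 74.2%, and in the Fs samples in 34.0%, 36.6% and 34.4%. Places common to Fts1 and Fts2 had a peak in Fts3 in 70.8%, and in the Fs samples in 32.9%, 34.6% and 33.2%. The held-out Fts sample was above every Fs sample each time. Fts1 gave the lowest of the 3 held-out shares. For places with a mean score of 50 or more in the 2 samples that defined them, the held-out shares were 75.1%, 87.0% and 75.4%, and the mean Fs shares 34.4%, 40.4% and 35.9%. These shares overlap in the samples they use and carry no test.

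**Figure D5:**
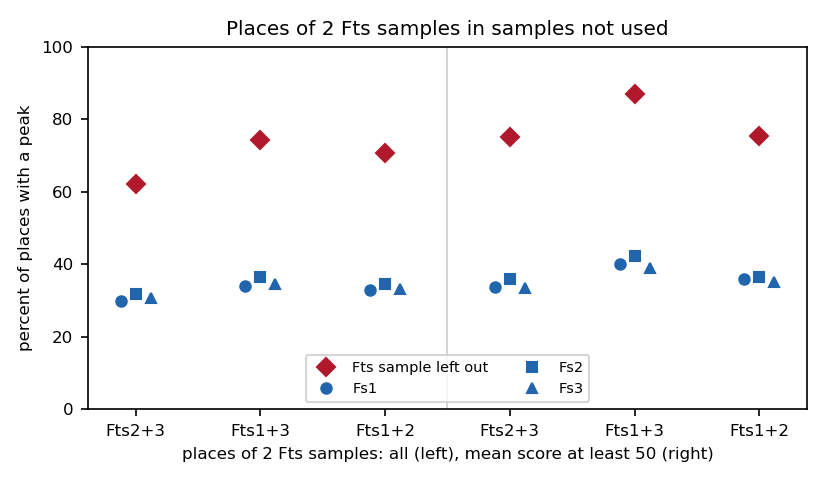
Percent of places common to 2 Fts samples that had a peak in the held-out Fts sample (red) and in each Fs sample (blue), for all places on the left and for those with a mean score of at least 50 on the right. On the left the held-out Fts points lie at 62.0%, 74.2% and 70.8%, and the Fs points between 29.9% and 36.6%.

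By gene, all 3 Fts scores lay above all 3 Fs scores in 1541 genes (7.46% of all annotated genes) and below them in 1247 (6.04%), with a sample without a peak counted as 0. All 1541 were members, since a gene above Fs in this way must have a peak in every Fts sample, so the count says nothing more about members. In 264 members (7.73%) the order was turned, with Fs above Fts. PKM and ZAN above are among these.

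Peaks as such differed between the groups in composition and in where they ended. The median GC content of peaks on mRNA exons was 49.7%, 50.5% and 50.4% in Fts1, Fts2 and Fts3 and 52.7%, 51.7% and 51.7% in Fs1, Fs2 and Fs3. The means were 50.2% ± 0.453 and 52.0% ± 0.577 (SD, n = 3 each), and the groups did not overlap, with a difference, Fts minus Fs, of -1.83 percentage points (two-sided exact permutation test, p = 0.1). The share of peaks with an end within 1 bp of an exon end was 85.1%, 87.4% and 86.5% in Fts and 80.6%, 80.1% and 79.6% in Fs. Its means were 86.3% ± 1.16 and 80.1% ± 0.499 (SD, n = 3 each), with Fts higher by 6.19 percentage points and no overlap (two-sided exact permutation test, p = 0.1). That is the smallest p-value that 3 against 3 samples can give, so no difference of any size could pass the usual threshold in this design.

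The rule has no score limit, so members differ from their neighbours by the third sample. Just outside it stood regions with a peak of 3100 in 2 Fts samples and none in the other, on C5H22orf46 and RANGAP1 (none in Fts3) and on LOC100738899, PRM3 and PSP-I (none in Fts2). RANGAP1, which activates the GTPase RAN, also had peaks of 1989 in Fs1 and 2303 in Fs3. Just inside it, at the lowest medians, stood places on RBM27, OSBPL9, RAB14, GNPTAB and TTYH1, the last at 3.51, 3.13 and 3.27. By chromosome, 21.9% of annotated genes on chromosome 15 and 21.0% on chromosome 8 were members, against 5.54% on chromosome X.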

How the data were processed

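MeRIP-seq was done on 3 Fs and 3 Fts samples, each with an IP and an input library. The authors trimmed reads with cutadapt 1.9.3 and aligned them to susScr11 with HISAT2. They called peaks per sample with MACS against the input of that sample, with a version that is not given in the sources used here, and kept peaks on mRNAs. The deposited lists give for each peak its position, strand and score, 10 times the negative log10 p-value, which stops at about 3100. A further table holds the authors' own comparison of Fts with Fs and was not used. Read totals per library were not used here, and no score was corrected for depth.

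From these lists, genes and transcript classes were assigned with the RefSeq annotation of Sscrofa11.1 at an overlap of at least 1 bp on the same strand. Python 3.11.15, NumPy 2.4.6, SciPy 1.17.1 and matplotlib 3.10.9 were used. The overlap, window and permutation steps were tested on simulated data. The median GC content of peaks and the share of peaks at exon ends were compared between groups with a two-sided exact permutation test over samples. Motif windows were all windows of a place's length on its transcript.

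The members, gene lists and tests were chosen with earlier results of these data known. The text names the 25 places with the highest median and the 10 genes with the most places. It also names up to 4 members per list by median score and every member of the list of single genes taken from the study. Named too are the 5 highest genes without an Fs peak, the 5 widest places and 5 regions just outside the rule. The spermadhesins, the other secreted proteins, and single genes named besides were chosen after their values were seen. A few genes that these rules pick are not reported here. Alternatives were a minimum score of 20 or 50, other definitions of a place, a gene, a codon class and a motif match, each replicate left out, and the replicate number as a block.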

Additional observations from a re-analysis of the deposited data

How the results depend on the processing

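The count of places depended most on the score limit and on Fts1. With peaks of 20 or more there were 1455 places and 1480 genes, and with 50 or more 800 places and 828 genes. Without 1 Fts sample in turn there were 4805 to 5761 places, the 5761 without Fts1, and 4072 to 4487 genes. The share of places with a peak in Fs was 30.7% at a score of 20, 26.2% at 50, 34.6% with at least 50% of the place covered, and 30.8% to 35.0% without 1 sample. The coding share was 68.8% with codon classes of 200 nt and 76.5% to 77.2% without 1 sample.

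RRACH stood in 89.1% of places at a score of 50 (86.1% of windows), in 91.0% of merged regions (88.5%), in 76.1% of 100 nt around midpoints (74.6%) and in 86.4% of wholly coding places (84.8%). It stood in 87.6% to 87.7% without 1 sample, and GGACT in 23.4% (22.4%). Each of these shares was above that of its windows, by under 3 percentage points.

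The group differences kept their direction in every alternative run. Without 1 replicate number the GC difference was -2.14 to -1.23 and that of exon ends 5.66 to 7.06 percentage points (exact permutation test, p = 0.333, the smallest possible then). With the replicate number as a block the differences were -1.83 and 6.19 (exact sign-flip test, p = 0.25, the smallest for 3 pairs). The study describes paired samples, but the labels do not tie a number to a boar, and equal numbers did not deviate together. Their score deviations correlated at -0.0219 to -0.00280. At scores of 20 and 50 the GC difference was -3.16 and -5.01. Of 140 scores of named places and genes, 71 moved by more than 1 SD when the lowest sample replaced the median. Leaving out a replicate lowered some scores, such as LOC110258908 from 3100 to 1552 and NR5A1 from 3100 to 1562.

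The part of sequencing depth in the number of weak peaks was not tested.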
